A study of Mus musculus with 16 samples.

Results

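TRBV31 is the only mouse T cell receptor (TCR) beta variable gene that lies downstream of the constant gene TRBC2, in the opposite orientation to the other functional TRBV genes. The cells described here carried exactly 1 beta chain (TRB), and its V label was TRBV31. They numbered 5897 of 66438 cells with exactly 1 TRB, out of 74368 cells in 8 libraries. The sequence of the receptor was read from CD44high CD4+ T cells, the antigen-experienced CD4+ fraction, sorted from mouse spleen at day 18 after engraftment of Vk12653 multiple myeloma cells. The study compared Eomes wild-type (WT) with Eomes knockout (KO) mice, each given agonistic anti-4-1BB or control IgG, so there are 4 groups, and each has 1 library in each of 2 experiments, named as batches in the labels. Eomes is a T-box transcription factor of lymphocytes, and 4-1BB is a costimulatory receptor.

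All mice carried the myeloma graft and received an NK1.1-depleting antibody (50 µg, days -2 and 5), and the treatment antibody was given at 20 µg on days 10, 13 and 16. WT mice had the genotype Eomes-IRES-GFP. KO mice were Eomesfl/fl-CD4Cre in experiment 1 and Eomesfl/fl-ERT2CD4Cre in experiment 2, and all mice of experiment 2, WT included, received tamoxifen. The kind of knockout, tamoxifen and the experiment therefore cannot be told apart. CD4-driven Cre is not limited to CD4+ T cells, since it is active in thymocytes that still express both coreceptors. Nothing in the labels says how many animals a library holds, so the spread between libraries may be partly technical. The gene expression libraries were not analysed here, so CD4, CD44 and Eomes were not checked, and all 123611 contigs were TRA or TRB chains.

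A beta chain is assembled in the thymus by joining a D to a J segment and then a V to the DJ unit. Upstream V genes join by deleting the DNA in between, whereas TRBV31 joins by inversion, which keeps that DNA in the chromosome. The locus has a pair of D-J-C clusters, and TRBD2 lies downstream of the TRBJ1 segments, so in the usual order TRBD1 can join either J cluster and TRBD2 joins TRBJ2. TRBJ1 chains are spliced to TRBC1 and TRBJ2 chains to TRBC2. In the RefSeq annotation of GRCm38.p6, TRBV31 occupies chromosome 6 from 41557693 to 41558371 and starts 9512 bases after the end of TRBC2. TRBV30, the nearest upstream V gene in the files, ends 251211 bases before TRBD1.

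Nearly all TRBV31 chains began their complementarity-determining region 3 (CDR3), the loop formed at the V-D-J junction, with the same bases. The sequences below are CDR3 nucleotides, 5′ to 3′, read from the deposited contigs. They are shown because they hold the junctions that the results are about. The consensus start was extended base by base while at least 50% of the distinct TRBV31 clonotypes that matched so far had the same next base. Capitals mark the bases between the part that matches the V consensus and the part that matches the J consensus.
TRBV31 consensus start: tgtgcctggagtctag
recurrent chain with TRBJ2-7: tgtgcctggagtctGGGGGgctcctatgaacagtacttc
recurrent chain with TRBJ1-1: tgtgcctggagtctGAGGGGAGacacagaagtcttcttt
recurrent chain with TRBJ2-3: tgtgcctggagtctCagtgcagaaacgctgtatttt
largest clone, WT anti-4-1BB, experiment 2: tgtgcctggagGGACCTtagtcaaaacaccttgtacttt

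The first 9 bases were intact in 96.9% of the 4286 TRBV31 beta clonotypes (cells of a library that share TRBV, TRBJ and CDR3 nucleotides count as 1 clonotype). The first 14 were intact in 40.1% and all 16 in 14.6%. A match at the last bases can also come from bases of the D segment or added at the junction, since no germline sequence was used here. The 3 recurrent chains encode the TRBV31 CDR3 amino acid sequences found in the most libraries, 6 of 8 for the first and 5 of 8 for the other 2. Their amino acid sequences were written by 4, 7 and 3 different nucleotide sequences and came from 6, 9 and 10 cells. Of the 3945 different TRBV31 CDR3 amino acid sequences, 233 (5.91%) were seen in 2 or more libraries, against 5.24% over the other TRBV labels. By label this share ran from 0.50% (TRBV30) to 7.45% (TRBV12-2+TRBV13-2). The labels nearest to TRBV31 in number of sequences, TRBV3 (4060) and TRBV13-3 (3216), had 6.50% and 4.48%.

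TRBV31 was among the most used and most even V labels. Counted once per paired clonotype (the beta clonotype with its main alpha chain, TRA), its share was 8.36%, 8.19%, 8.54% and 6.98% in experiment 1, with WT before KO and, within each, IgG before anti-4-1BB. In this order, kept for all values by library, it was 7.85%, 8.21%, 6.98% and 7.09% in experiment 2. These 8 shares span a narrow band, with a mean of 7.78% ± 0.658 (SD, n = 8 libraries) over 2373 of 30483 paired clonotypes, which is rank 3 of 22 TRBV labels. The coefficient of variation over libraries was 8.46%, the second lowest of the 22. TRBV30, TRBV29 and TRBV1 had shares of 0.475%, 2.03% and 6.45% with coefficients of variation of 37.9%, 15.4% and 20.4%.

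Counted per cell, the TRBV31 share was less even. It was 8.08%, 9.34%, 8.53% and 7.68% in experiment 1, in the same order of groups. In experiment 2 it was 8.93%, 11.7%, 6.80% and 9.04%. The high value was that of WT anti-4-1BB in experiment 2 (1062 of 9064 cells, 95% Clopper-Pearson interval 11.1% to 12.4%), and the low value that of KO IgG in the same experiment (687 of 10109 cells, 6.31% to 7.30%). Intervals here cover counting error only.

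**Figure D1:**
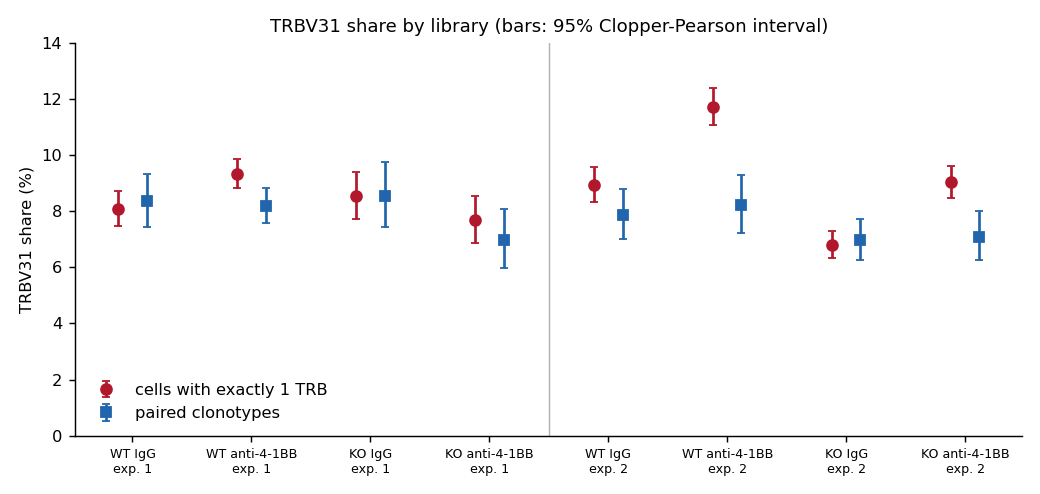
Share of TRBV31 in each library (y axis, percent), among cells with exactly 1 TRB (red circles) and among paired clonotypes (blue squares), with 95% Clopper-Pearson intervals. The clonotype shares lie between 6.98% and 8.54%, while WT anti-4-1BB of experiment 2 reaches 11.7% of cells.

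No difference in TRBV31 clonotype use by treatment or genotype passed the test. With anti-4-1BB against IgG the log2 difference was -0.06 ± 0.11 (SE; edgeR quasi-likelihood test on 8 libraries, adjusted p = 0.959), in a comparison that called 2 of 153 segments (1.31%). KO against WT differed by -0.14 ± 0.11 (edgeR, adjusted p = 0.996; 1 of 153 segments called, 0.654%). The treatment difference in KO minus that in WT was -0.16 ± 0.23 (edgeR, adjusted p = 0.983; 0 of 153 called). With a library left out, the genotype difference ranged from -0.22 (without KO IgG of experiment 1) to -0.07 (without KO IgG of experiment 2), and the interaction from -0.30 (without KO IgG of experiment 2) to -0.0046 (without KO IgG of experiment 1). The treatment difference was -0.15 ± 0.16 in experiment 1 and 0.05 ± 0.16 in experiment 2, and these differed by 0.19 ± 0.22 (edgeR, adjusted p = 0.692; 1 of 153 called, 0.654%). The sign of the treatment difference turned to 0.06 with DESeq2 and to 0.04 with beta clonotypes of all cells with 1 TRB.

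By their pattern over libraries, the labels most like TRBV31 were TRBV13-3, TRBV23 and TRBV14. The Pearson correlations of their log2 clonotype shares with that of TRBV31 were 0.71, 0.63 and 0.36 over the 8 libraries. The shares of 1 library sum to a fixed total, so these values are a description.

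TRBV31 chains joined the TRBJ1 cluster more often, and the TRBJ2 cluster less often, than the other TRBV did. In experiment 1, TRBJ2 made up 65.6%, 63.9%, 58.8% and 66.9% of TRBV31 beta clonotypes, against 70.5%, 68.3%, 69.2% and 70.1% of the other clonotypes of the same libraries. In experiment 2 the TRBV31 values were 65.4%, 66.5%, 63.9% and 61.8%, and the other TRBV had 70.3%, 72.2%, 69.0% and 71.5%. TRBV31 was lower in 8 of 8 libraries, and the highest TRBV31 value lay below the lowest value of the other TRBV. The mean difference was -6.01 ± 2.57 points (SD, n = 8; two-sided exact sign-flip permutation test, p = 0.00781, the smallest that 8 libraries can give, adjusted p = 0.0186 over 19 values of this kind). Counted per cell, so that large clones weigh more, it was -4.57 points (exact permutation test, adjusted p = 0.0799).

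A low TRBJ2 share was not limited to TRBV31. Among the 22 labels its mean of 64.1% was rank 3 from the low end, after TRBV13-2 (61.6%) and TRBV29 (62.6%), and TRBV30 and TRBV1 had 74.7% and 69.6%. The constant gene followed the J cluster. Among TRBV31 beta clonotypes, 1505 of 1536 with TRBJ1 had TRBC1 and 2746 of 2750 with TRBJ2 had TRBC2, and the rest had no C label. TRBC1 thus made up 35.4% of TRBV31 clonotypes with a C label and 29.4% of the others (6.08 ± 2.50 points, SD, higher in 8 of 8 libraries; exact permutation test, adjusted p = 0.0186), or 4.60 points more per cell (adjusted p = 0.0742).

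**Figure D2:**
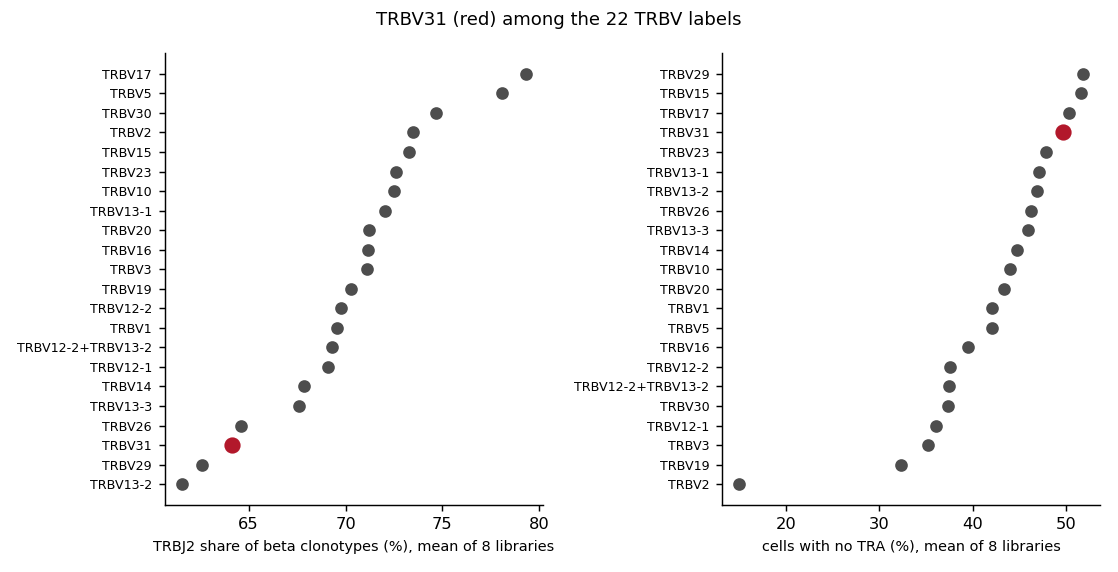
Each of the 22 TRBV labels as a point, ordered by the TRBJ2 share of its beta clonotypes (left, percent) and by the share of its cells with no TRA (right, percent), both as means of 8 libraries. TRBV31 (red) is rank 3 from the low end in TRBJ2 share, 64.1%, and rank 4 from the high end in cells with no TRA, 49.7%.

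The shift was not the same for every J segment. Over partner segments of paired clonotypes (12 TRBJ, with the TRAV and TRAJ that passed the count filter), the edgeR test called 6 of 131 (4.58%), 3 higher (2.29%) and 3 lower (2.29%) with TRBV31. TRBJ2-3 rose (log2 difference 0.43 ± 0.10, SE; edgeR, adjusted p = 0.0289) and TRBJ2-4 fell (-0.48 ± 0.13; edgeR, adjusted p = 0.0386). Among beta clonotypes, TRBJ2-3 took 10.1% to 14.9% of TRBV31 chains and 9.07% to 10.4% of the others, and TRBJ2-4 took 5.26% to 10.5% and 9.05% to 11.3%. In both cases the library ranges overlap, and TRBJ2-3 was higher in 8 of 8 libraries and TRBJ2-4 in 0 of 8.

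The other 10 TRBJ did not pass the test. TRBJ1-2, TRBJ1-4 and TRBJ1-6 had log2 differences of 0.38 ± 0.13, 0.43 ± 0.14 and 0.49 ± 0.17 (SE; edgeR, adjusted p = 0.0890, 0.0787 and 0.0968), and TRBJ2-7, the most used J segment, had -0.28 ± 0.09 (edgeR, adjusted p = 0.0787). With beta clonotypes of all cells with 1 TRB, which hold 4286 TRBV31 clonotypes in place of 2373, 9 of 12 TRBJ were called, 5 higher and 4 lower. The 6 calls fell to between 0 and 5 when a library was left out. There were 0 without WT IgG of experiment 2, 1 without WT anti-4-1BB or KO IgG of experiment 2, and 3 without WT IgG or KO IgG of experiment 1 or KO anti-4-1BB of experiment 2.

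**Figure D3:**
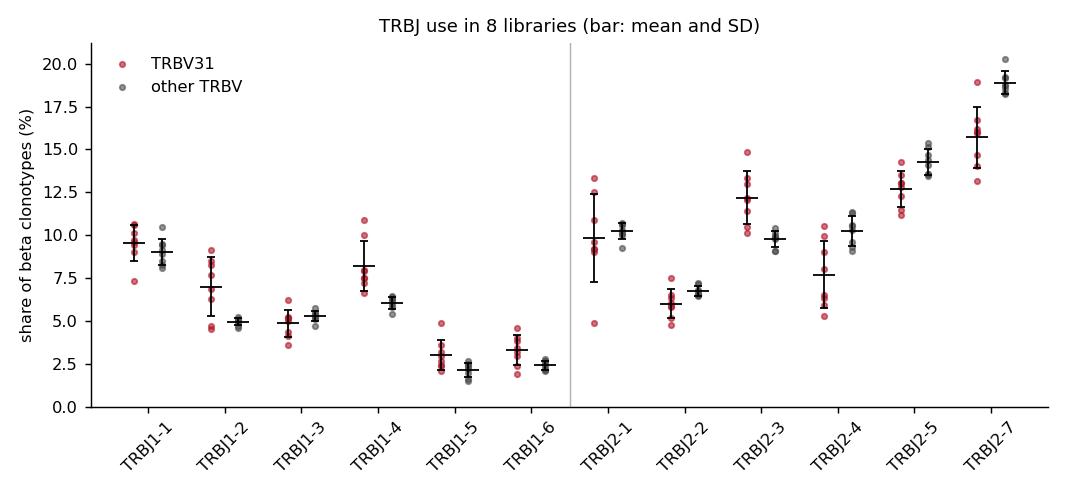
Share of each TRBJ segment among TRBV31 beta clonotypes (red) and among all other beta clonotypes (grey), in percent. Each point is a library and the black bars are the mean and SD of 8 libraries; TRBJ1-4 and TRBJ2-3 were higher with TRBV31 in 8 of 8 libraries, and TRBJ2-4 and TRBJ2-5 were lower in 8 of 8.

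The D segment was read from the deposited D label and, separately, from the letters of the CDR3. Most chains had no D label, 78.6% of TRBV31 clonotypes with TRBJ1 and 75.5% with TRBJ2. A 7-base core was therefore searched on the coding strand as well, GACAGGG for TRBD1 and GACTGGG for TRBD2, which differ at 1 base. They were chosen in the other TRBV, on the bases between the V-matched and J-matched parts. There GACAGGG, which best separated the D labels, was in 65.4% of TRBD1-labelled chains with TRBJ1. GACTGGG, the most frequent sequence 1 base away from it, was in 56.9% of TRBD2-labelled chains with TRBJ2. Neither was found there in chains of the other label. The shares below search the whole CDR3, where 2235 of these 3286 TRBD2-labelled chains held GACTGGG. The TRBD2 core was chosen after a first choice had been seen to match a run of G, and the values of that choice are given beside the results they touch.

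Within TRBJ2, TRBV31 chains carried TRBD2 more often and the TRBD1 core less often than the other TRBV. The TRBD2 label was on 12.04%, 12.1%, 15.6% and 11.2% of TRBV31 clonotypes with TRBJ2 in experiment 1 and on 12.2%, 18.1%, 13.6% and 13.5% in experiment 2. The other TRBV lay between 9.68% and 11.6%, and KO anti-4-1BB of experiment 1 was the library where TRBV31 was not higher. The mean difference was 2.77 ± 2.64 points (SD, higher in 7 of 8; exact permutation test, adjusted p = 0.0228). With chains without a D label left out it was 7.09 points (exact permutation test, adjusted p = 0.0742).

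The cores gave the same direction. GACTGGG was in 23.0% of TRBV31 and 18.7% of other clonotypes with TRBJ2 (4.28 ± 3.62 points, higher in 6 of 8; exact permutation test, adjusted p = 0.0424), a call that was lost when any of 6 of the 8 libraries was left out. The core first chosen, TGGGGGG, gave 25.0% and 19.8% (higher in 8 of 8; adjusted p = 0.0165). GACAGGG was in 7.82% of TRBV31 and 10.5% of other clonotypes (-2.66 ± 1.08 points, higher in 0 of 8; exact permutation test, adjusted p = 0.0186). The TRBD1 label within TRBJ2 did not pass the test, at 11.5% in TRBV31 and 12.1% in the others (-0.611 ± 3.15 points, SD, higher in 1 of 8; exact permutation test, adjusted p = 0.693). That 1 library, KO anti-4-1BB of experiment 1, differed by 6.89 points. Without it the difference was -1.68 points, with no p-value given because the only library of the opposite sign was left out. In counts, 630 TRBV31 chains with TRBJ2 held the TRBD2 core and 211 the TRBD1 core, a ratio of 2.99, against 5718 and 3234 in the other TRBV, a ratio of 1.77. These shares were not extreme among the 22 labels. TRBV31 was rank 4 in the TRBD2 label within TRBJ2, after TRBV20 (16.1%), TRBV12-2+TRBV13-2 (15.1%) and TRBV10 (14.2%), and rank 3 in the TRBD2 core, after TRBV10 (28.7%) and TRBV20 (24.6%). In the TRBD1 core only TRBV10 was lower (6.62%).

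With TRBJ1, where TRBD1 is the D segment of the usual order, the TRBD1 core was in 20.9% of TRBV31 and 17.8% of other clonotypes (3.12 ± 3.27 points, higher in 7 of 8; exact permutation test, adjusted p = 0.0228). With each other TRBV label given the same weight that call was lost (2.997 points, higher in 6 of 8; exact permutation test, adjusted p = 0.114). A TRBD2 label on a TRBJ1 chain was rare, and more frequent with TRBV31. It was on 23 of 1536 TRBV31 clonotypes with TRBJ1 (1.497%, 95% Clopper-Pearson interval 0.952% to 2.24%) and on 18 of 13183 others (0.137%, 0.0809% to 0.216%). TRBV31 was higher in 8 of 8 libraries, with library means of 1.67% and 0.136% (exact permutation test, adjusted p = 0.0186).

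The letters of these chains did not carry the TRBD2 core. GACTGGG was in 0 of the 23 TRBV31 chains and in 0 of the 18 others, while a run of 6 G was in 18 of the 23 and 16 of the 18. Among TRBD2-labelled chains with TRBJ2, such a run was also in 344 of 370 with TRBV31 and 3036 of 3286 others. GACTGGG was in 229 and 2235 of those TRBJ2 chains. Over all TRBJ1 chains GACTGGG was in 3 TRBV31 and 5 other clonotypes (0.158% and 0.0450% as library means, higher in 3 of 8; exact permutation test, adjusted p = 0.279). TGGGGGG, which a V end followed by a run of G can also spell, was in 2.21% and 1.26% (higher in 7 of 8; adjusted p = 0.0297). How the label was assigned to these chains was not tested. The chains below are the TRBD2-labelled one with the most UMIs (unique molecular identifiers, counts of molecules) for 3 TRBJ1 segments, and show the G run, which in the TRBJ1-1 chain begins with the last base of the V-matched part.
TRBJ1-1, TRBD2 label: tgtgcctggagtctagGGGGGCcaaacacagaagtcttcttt
TRBJ1-2, TRBD2 label: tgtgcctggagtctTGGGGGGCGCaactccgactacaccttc
TRBJ1-6, TRBD2 label: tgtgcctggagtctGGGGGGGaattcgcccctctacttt

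The TRBV31 CDR3 was slightly shorter than that of the other TRBV. Its mean length was 13.70, 13.62, 13.75 and 13.68 amino acids in experiment 1 and 13.70, 13.71, 13.64 and 13.56 in experiment 2, against 13.69 to 13.84 for the other TRBV. The difference was -0.08 ± 0.05 amino acids (SD, higher in 1 of 8 libraries; exact permutation test, adjusted p = 0.0228), and TRBV31 was higher in WT anti-4-1BB of experiment 2. Per cell it was -0.03 amino acids (exact permutation test, adjusted p = 0.576). The most common length was 14 amino acids in both, with 32.9% of TRBV31 and 31.2% of other clonotypes.

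Of the 3 parts of the CDR3, the V-matched part was shorter and the other 2 were longer. The V-matched bases numbered 12.72 in TRBV31 and 13.55 in the other TRBV (-0.83 ± 0.13, SD, lower in 8 of 8 libraries), given with no test because each label has its own consensus end. The bases between the V and J ends numbered 9.64 in TRBV31 and 9.37 in the other TRBV (0.27 ± 0.18, higher in 7 of 8; exact permutation test, adjusted p = 0.0228), and the bases matching the J end 18.65 and 18.34 (0.31 ± 0.11, higher in 8 of 8; exact permutation test, adjusted p = 0.0186). The middle bases begin where the V match stops, so their difference also depends on the consensus end of each label. With a consensus share of 0.4, the value first used, the difference in middle bases was 0.20 and was no longer called (exact permutation test, adjusted p = 0.0530). With a share of 0.6 it was 0.49. By label, TRBV31 was rank 6 of 22 in middle bases. TRBV30, TRBV20, TRBV10 and TRBV14 had fewer V-matched bases than TRBV31 (11.4, 11.5, 12.3 and 12.5 against 12.7). TRBV29, TRBV30 and TRBV1 had 10.12, 9.24 and 8.99 middle bases and mean lengths of 13.84, 13.02 and 14.08 amino acids.

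TRBV31 cells more often had no alpha chain in the files. In experiment 1, 49.9%, 32.3%, 39.4% and 42.7% of TRBV31 cells had no TRA, against 47.0%, 29.7%, 38.4% and 34.4% of cells with other TRBV. In experiment 2 the values were 55.7%, 66.4%, 44.5% and 66.6%, against 45.3%, 49.0%, 40.5% and 49.9%. The gap was widest in the anti-4-1BB libraries of experiment 2. Over the 8 libraries it was 7.91 ± 6.42 points (SD, higher in 8 of 8; exact permutation test, adjusted p = 0.0186), and 7.23 points among cells alone in their beta clonotype (adjusted p = 0.0186).

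TRBV31 cells also had fewer UMIs than the pooled cells of the other TRBV. The mean log2 TRB UMIs per cell was 3.53 in TRBV31 and 3.63 in other cells (-0.10 ± 0.07, higher in 1 of 8; exact permutation test, adjusted p = 0.0228), and for the main TRA of paired cells it was 2.86 and 2.94 (-0.08 ± 0.03, higher in 0 of 8; exact permutation test, adjusted p = 0.0186). With each other TRBV label given the same weight, the TRB difference was -0.04 and was not called (exact permutation test, adjusted p = 0.223). The TRA difference was -0.08 (exact permutation test, adjusted p = 0.0186). By label, TRBV31 was rank 11 of 22 in mean log2 TRB UMIs, in the middle of the labels. The 2 gaps varied by library. WT anti-4-1BB of experiment 2 had the widest gap in missing TRA, 17.4 points, with a log2 TRB UMI difference of -0.06. KO IgG of experiment 2 had 4.08 points with -0.17. KO anti-4-1BB of experiment 2 had 16.7 points with -0.17, and WT anti-4-1BB of experiment 1 had 2.55 points with 0.03. The part of depth in the missing alpha chains was not tested. With at least 3 UMIs required per chain the gap in missing TRA was 8.27 points (exact permutation test, adjusted p = 0.0165). A second TRA was in 6.43% of paired TRBV31 cells and 5.74% of the others (higher in 5 of 8; exact permutation test, adjusted p = 0.279).

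**Figure D4:**
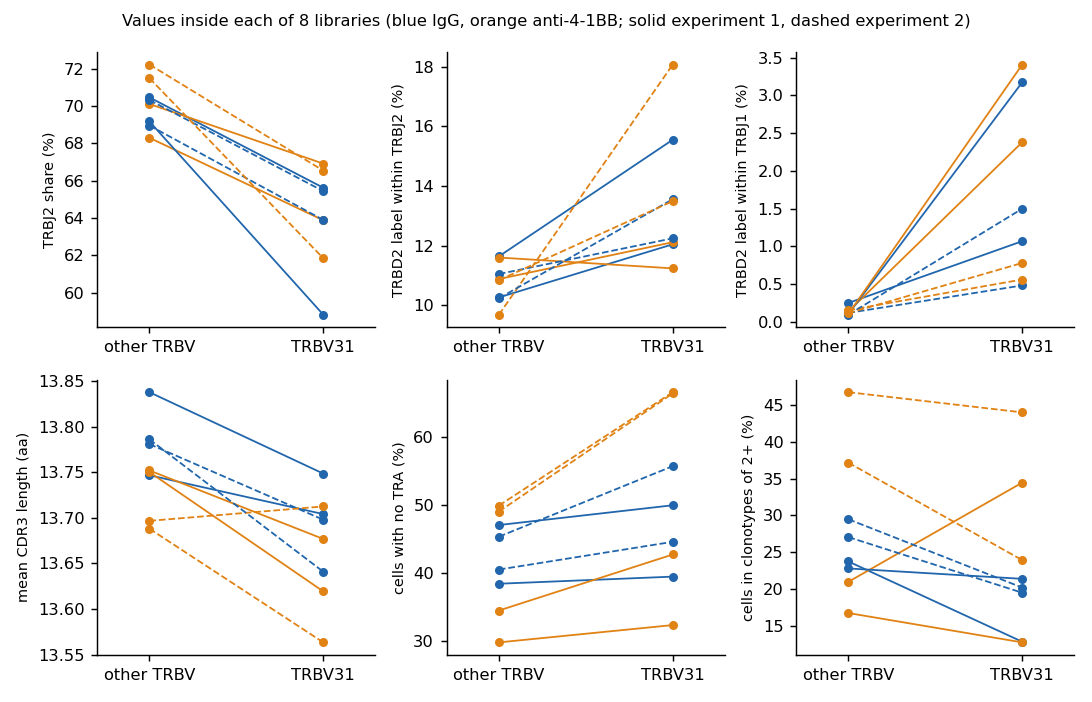
Each line joins the value of the other TRBV to that of TRBV31 inside 1 library, for the TRBJ2 share, the TRBD2 label share within TRBJ2 and within TRBJ1, the mean CDR3 length, the share of cells with no TRA and the share of paired cells in clonotypes of 2 or more cells (axes do not start at 0). TRBJ2 fell in 8 of 8 libraries and cells with no TRA rose in 8 of 8, while the last panel has 1 line that climbs, WT anti-4-1BB of experiment 1.

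A receptor with 2 beta chains can arise when both copies of the locus are joined, or when 2 cells share a droplet. No difference in the TRBV31 share of second beta chains passed the test. In the 4077 cells with exactly 2 TRB, TRBV31 made up 8.81% of the chains with fewer UMIs, and 8.76% of the chains of cells with 1 TRB (0.05 ± 2.19 points, SD, higher in 5 of 8; exact permutation test, adjusted p = 0.961). Since all these cells had a TRA, a comparison with cells of 1 TRB that also had a TRA is the closer match, and there TRBV31 made up 7.48% of chains, a difference of 1.33 points (higher in 6 of 8; exact permutation test, adjusted p = 0.198). The difference was -0.12 points with at least 3 UMIs per chain and -0.33 points with either chain counted. TRBV31 was 1 of the 2 chains in 619 such cells, as the chain with more UMIs in 292 and with fewer in 327. In 43 cells both chains were TRBV31, in 0 of them with the same CDR3 nucleotides. Libraries ranged from 11.0% (KO anti-4-1BB, experiment 1, 16 of 146) to 18.5% (KO anti-4-1BB, experiment 2, 99 of 535) of 2-TRB cells with a TRBV31 chain. All 4077 had a TRA, and 17.0% of the 619 had 2 TRA, against 16.2% of the 2-TRB cells without TRBV31. Doublets were not called, and their part was not tested.

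The alpha chains paired with TRBV31 were varied, with 84 TRAV and 43 TRAJ labels in 1203 combinations over 2373 paired clonotypes. Of the 6 called segments, 4 were alpha segments. TRAV11, the V segment of the invariant alpha chain of natural killer T (NKT) cells, was the lowest, with a log2 difference of -2.08 ± 0.52 (SE; edgeR, adjusted p = 0.00958). It was in 5 TRBV31 clonotypes, at most 0.508% of a library's TRBV31 clonotypes, and in 268 others, 0.302% to 2.39% per library. Of these, 1 of the 5 and 222 of the 268 were joined to TRAJ18, the invariant NKT combination. Of 225 cells with that alpha chain (TRAV11 or TRAV11D with TRAJ18), 1 had TRBV31. Of 4 cells with the alpha chain of mucosal-associated invariant T (MAIT) cells (TRAV1 with TRAJ33), 0 had it, and 0 of 2892 paired TRBV31 cells allows a share of up to 0.104%.

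TRAJ30 was also lower with TRBV31 (-0.72 ± 0.21; edgeR, adjusted p = 0.0386). It took 1.52% to 2.70% of TRBV31 clonotypes per library and 2.97% to 5.69% of the others, with no overlap between the ranges. Of the 1069 other TRAJ30 clonotypes, 180 (16.8%) had TRBV1, which had a mean share of 6.45% of all paired clonotypes. The part of TRBV1 in the TRAJ30 difference was not tested. TRAJ38 was higher (1.01 ± 0.32; edgeR, adjusted p = 0.0386), with 32 TRBV31 and 188 other clonotypes, 0.300% to 2.54% against 0.560% to 0.813%. TRAV6-7-DV9 was higher (0.60 ± 0.19; edgeR, adjusted p = 0.0386), at 1.99% to 5.59% against 2.19% to 3.41%, in 7 of 8 libraries. Of the 6 calls, DESeq2 kept TRBJ2-3 and TMM factors kept TRAV11. Counted per cell, 0 of 133 segments were called by edgeR, with 14 at an unadjusted p under 0.05.

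**Figure D5:**
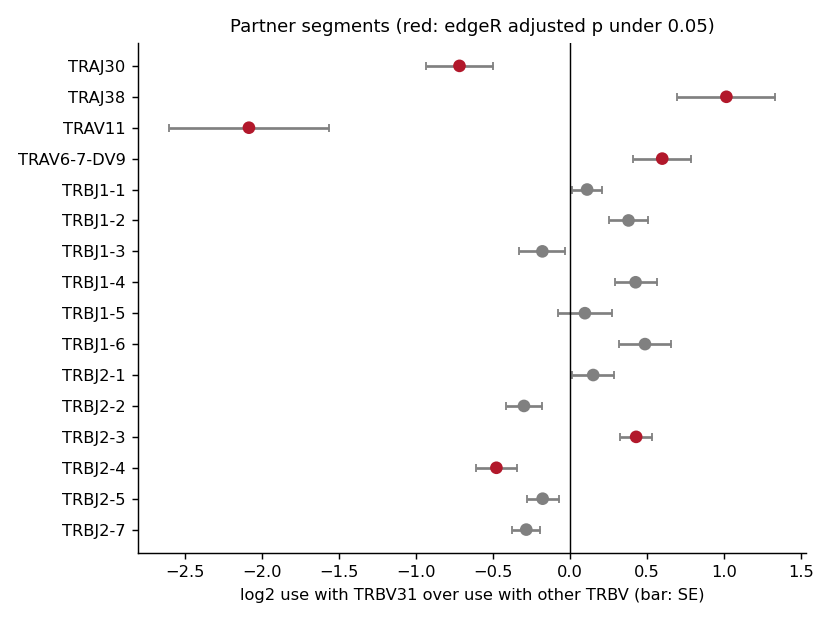
Log2 difference (x axis, bars are the SE) in the use of each partner segment with TRBV31 over its use with the other TRBV, for all 12 TRBJ and the called TRAV and TRAJ segments. Red points passed the edgeR test; TRAV11 at -2.08 is the lowest of them and TRAJ38 at 1.01 the highest.

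TRBV31 clones were mostly small, as were those of the other TRBV. Clonotypes of 2 or more cells made up 5.2% to 15.5% of TRBV31 paired clonotypes per library and 7.4% to 15.8% of the others. Among paired TRBV31 cells, 12.9%, 34.5%, 21.4% and 12.8% were in clonotypes of 2 or more cells in experiment 1, against 23.8%, 21.0%, 22.8% and 16.8% of the other paired cells. In experiment 2 the values were 19.5%, 44.0%, 20.2% and 23.9%, against 27.1%, 46.7%, 29.5% and 37.2%. TRBV31 was lower in 7 libraries and higher in WT anti-4-1BB of experiment 1. The difference was -4.45 ± 8.32 points (SD, n = 8; exact permutation test, adjusted p = 0.228). Without that library it was -7.01 points, with no p-value given because the only library of the opposite sign was left out.

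The largest TRBV31 clonotype held 42 cells, in WT anti-4-1BB of experiment 2, with TRBJ2-4, TRAV14N-1 and TRAJ4. That was 11.8% of the paired TRBV31 cells of the library. Its beta chain, printed above, was in 136 cells, 88 of them with no TRA. In the other 7 libraries the largest TRBV31 clonotype held 3 to 11 cells, or 1.25% to 3.93% of the paired TRBV31 cells.

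The library that stood apart in clone size, WT anti-4-1BB of experiment 1, also stood apart in its alpha partners. It was examined further after its values had been seen, so the following is a description with no test. TRAV6D-6 was in 62 of its 621 TRBV31 clonotypes (9.98%, 95% Clopper-Pearson interval 7.74% to 12.6%), the most frequent TRAV there. In the other 7 libraries it was in 3.003% to 4.33% of TRBV31 clonotypes, and with the other TRBV in 4.35% of the clonotypes of the same library. In the second library of that group, WT anti-4-1BB of experiment 2, TRAV6D-6 was in 10 of 231 (4.33%).

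These TRAV6D-6 clonotypes were also expanded. They made up 21 of the 96 TRBV31 clonotypes of 2 or more cells in that library, and 75 of their 116 cells (64.7%) were in such clonotypes, against 29.3% of its other paired TRBV31 cells and 24.9% of its TRAV6D-6 cells with other TRBV. In the other 7 libraries TRBV31 cells with TRAV6D-6 numbered 7 to 19. The share of them in such clonotypes was 63.6% in KO IgG of experiment 1 (7 of 11), 63.2% in KO anti-4-1BB of experiment 2 (12 of 19) and 16.7% in WT IgG of experiment 1 (2 of 12). It was 0% in the remaining 4, which include WT anti-4-1BB of experiment 2 (0 of 10). The largest had 7 cells, so no single clone carried the value, and the 62 clonotypes used all 12 TRBJ. Their median TRB UMI count was 32.5, against 18 in the other paired TRBV31 cells, and this library also had the most cells and UMIs of the 8. The part of depth was not tested. Over all libraries TRAV6D-6 was not called as a partner of TRBV31 (log2 difference 0.33 ± 0.17; edgeR, adjusted p = 0.330). The largest of these chains are shown because they share V segments and differ in D-J junction and J segment.
TRAV6D-6 clone with TRBJ1-2, 7 cells: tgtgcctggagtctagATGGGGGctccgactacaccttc
TRAV6D-6 clone with TRBJ1-4, 7 cells: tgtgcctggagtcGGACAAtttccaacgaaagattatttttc
TRAV6D-6 clone with TRBJ2-1, 6 cells: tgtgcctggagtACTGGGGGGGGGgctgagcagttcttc
TRAV6D-6 clone with TRBJ2-2, 6 cells: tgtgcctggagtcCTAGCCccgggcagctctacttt

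Within TRBV31, no value by group could pass 0.05, because 16 arrangements inside 4 strata leave the smallest possible p above that threshold. The TRBV31 share of beta clonotypes was lower for KO in each of the 4 strata (-0.735 ± 0.870 points, SD; exact permutation test, the smallest p that 16 arrangements can give, adjusted p = 0.667). With a library left out it ranged from -0.916 to -0.302 points, the latter without WT IgG or KO IgG of experiment 2. The TRBJ2 share of TRBV31 was higher by 1.35 ± 4.71 points with anti-4-1BB (2 of 4 strata; exact permutation test, p = 0.875). Its middle bases were lower by that contrast in 3 of 4 strata (-0.12 ± 0.14; exact permutation test, p = 0.25). TRBV31 cells with no TRA differed by 4.59 ± 16.7 points with anti-4-1BB, made of -7.19 points in experiment 1 and 16.4 in experiment 2 (exact permutation test, p = 0.625). None of these 3 treatment differences had one sign in all 4 strata. Median TRB UMIs were higher with anti-4-1BB in each of the 4 pairs of libraries, and the part of depth was not tested.

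The libraries held 4090 to 12669 cells with 1 TRB and 80551 to 445027 TCR UMIs. Of 71086 distinct barcodes, 3198 occurred in 2 or more libraries, and 0 of them with the same TRB.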

How the data were processed

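TCR contigs were read from 8 libraries of CD44high CD4+ spleen T cells. Each deposited table lists contigs with V, D, J and C labels, CDR3 and, per the file headers, a read count and a UMI count. The submitters' processing notes list bcl2fastq 2.20.0, Cell Ranger 7.1.0, Seurat and the build GRCm38; which V(D)J reference was used is not stated in them. All contigs were marked as in cells, high confidence, full length and productive, so a chain removed before deposit looks like one that was never there. TRBV12-2+TRBV13-2 was kept as its own label.

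Beta clonotypes came from cells with exactly 1 TRB, and paired clonotypes from those with 1 or 2 TRA, using the TRA with most UMIs. Segment use was tested with edgeR 4.0.16 (R 4.3.3) on clonotype counts, with the total of each segment type as library size, at least 10 clonotypes in at least 2 columns, and Benjamini-Hochberg adjustment over all segments; calls were made under 0.05. The partner fit compared 16 columns with library as a term. Other values were compared inside libraries by two-sided exact sign-flip permutation tests, adjusted over 19 values, 8 of which were added after the D labels and UMIs had been seen. Strata tests have 16 arrangements. Intervals are 95% Clopper-Pearson, and a count of 0 was given a limit of 3 counts. Depth was 80551 to 445027 UMIs per library. The edgeR script was tested on simulated data.

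Named segments followed a rule: TRBV31, TRBV30, TRBV29 and TRBV1, the 3 TRBV labels most correlated with TRBV31, all 12 TRBJ, the called alpha segments, the most recurrent CDR3s and the largest clonotypes. TRAV6D-6, TRBV13-2, TRBV10, TRBV20, TRBV3, TRBV12-2+TRBV13-2, the V-matched bases and the TRBD2-labelled TRBJ1 chains were added after their values were seen. The members and lists were chosen with earlier results of these data known. The consensus share of 0.5 and the TRBD2 core replaced first choices after results were seen. Replicate numbers mark the experiment, which the labels give as the batch. Deviations of same-numbered libraries correlated over segments from -0.13 to 0.40 in 6 pairs of groups. Alternatives were DESeq2 1.42.0, TMM factors, other filters, cells counted, UMI minimums, other references and leaving out each library. Python 3.11.15, pandas 2.3.3, numpy 2.4.6, scipy 1.17.1 and matplotlib 3.10.9 were used.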

Additional observations from a re-analysis of the deposited data

Results flagged for a closer look

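In 6 values the difference between groups had one sign in both strata of one experiment or treatment and the opposite sign in both strata of the other. These reversals were not tested, except for the shares of beta and of paired clonotypes by treatment. With anti-4-1BB minus IgG, the TRBV31 share of beta clonotypes differed by -1.12 points in experiment 1 and 1.56 points in experiment 2, and its share of paired clonotypes by -0.864 and 0.239 points. For paired clonotypes, the edgeR test of clonotype use gave a difference between the 2 experiments of 0.19 ± 0.22 on the log2 scale (adjusted p = 0.692). With beta clonotypes of all cells with 1 TRB the same test gave 0.43 (edgeR, adjusted p = 0.173).

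With KO minus WT, the mean CDR3 length of TRBV31 differed by 0.0509 amino acids in experiment 1 and -0.103 in experiment 2, and its middle bases by 0.184 and -0.391. TRBV31 cells with no TRA differed between KO and WT by -10.8 points with IgG and by 5.28 points with anti-4-1BB. The share of paired TRBV31 cells in clonotypes of 2 or more differed by 4.62 points with IgG and by -20.9 points with anti-4-1BB. Libraries were not thinned to equal cell numbers, and the anti-4-1BB pair of experiment 1 had 801 paired TRBV31 cells in WT and 180 in KO.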

How the results depend on the processing

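The treatment difference in TRBV31 use (-0.06) was 0.0642 with DESeq2, 0.00684 with TMM factors, 0.00167 with cells counted, 0.0392 with beta clonotypes, and -0.131 to 0.0147 with a library left out; it was called under none of these. The interaction (-0.16) was 0.128 with beta clonotypes. With a replicate block for the experiment, the treatment difference was -0.06 (edgeR, adjusted p = 0.944), and the block changed no call for TRBV31.

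Of the 6 partner calls, DESeq2 and TMM factors left 1 each, cells counted 0 and at least 3 UMIs 2, and leaving out a library 0 to 5. For TRBJ alone the 2 calls became 1 with DESeq2, 0 with TMM factors, cells or 3 UMIs, 4 with no replicate block (no library term), 9 with beta clonotypes, and 0 to 2 with a library left out; the cause was not tested. TRBJ1-5 ranged from -0.0280 (without WT IgG of experiment 1) to 0.181 with a library left out. Counting cells gave -4.57 for the TRBJ2 share, 4.600 for the TRBC1 share and -0.0292 for CDR3 length, none called. Without unlabelled D chains, TRBD2 differed by 3.503 points overall and 7.09 within TRBJ2, neither called. Equal weights gave -0.0377 for log2 TRB UMIs and 2.997 for the TRBD1 core within TRBJ1, neither called, and a consensus share of 0.4 gave 0.197 middle bases. Second TRB chains differed by 1.33 points against cells with TRA, -0.116 with 3 UMIs, -0.328 with either chain and -0.260 to 0.566 with a library left out. The share in clonotypes of 2 or more differed by -7.01 to -3.20 points with a library left out, and by -5.30 without TRAV6D-6 cells.

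By group, signs turned with cells counted for paired clonotypes by treatment (0.0722), CDR3 length by genotype (0.0251) and middle bases by genotype (0.154). With a library left out, the ranges by treatment were -0.515 to 0.706 for beta clonotypes, -0.537 to 0.103 for paired clonotypes, -0.898 to 2.48 for TRBJ2 and -1.22 to 11.99 for cells with no TRA. By genotype they were -0.0539 to 0.0149 for CDR3 length, -0.221 to 0.0452 for middle bases and -7.15 to 0.0186 for cells with no TRA. Rare labels rest on few counts, such as 23 TRBD2-labelled TRBJ1 chains and 5 TRAV11 clonotypes.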
